A study of Mus musculus with 5 samples.

Results

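S100 proteins are small calcium-binding proteins with EF-hand motifs, which act mostly as dimers and change shape when calcium is bound, so that they can grip partner proteins such as annexins, myosin and ubiquitin ligase components. Some members are released from cells and act as danger signals through the receptor RAGE or Toll-like receptor 4. In skin the family is known both from keratinocytes, where many S100 genes lie within or beside the epidermal differentiation complex, and from leukocytes, where S100A4 and S100A6 mark motile and activated cells and S100A8 and S100A9 together form calprotectin.

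The mRNA levels of 10 members of the family, *S100a3*, *S100a4*, *S100a6*, *S100a8*, *S100a9*, *S100a10*, *S100a11*, *S100a13*, *S100a14* and *S100a16*, were taken by gene symbol from a count table of 47729 genes. The table holds polyA RNA-seq libraries of unstimulated dermal group 2 innate lymphoid cells (dILC2s) that were sorted from the skin of female C57BL/6 mice aged 8 to 13 weeks. The study's flow cytometry identified dILC2s as viable CD45+ CD90hi cells without a CD2 or CD3 signal. Its sequencing methods give no gate for the sort. The 3 wild-type (WT) libraries are the pools numbered 5, 6 and 13, each of 10 mice, and the 2 libraries labelled Rag1-/- are the pools numbered 2 and 7, from mice that lack mature T and B cells. The labels give 16 Rag1-/- mice in all, and the study's methods give 18, or 9 per pool. The cell type label reads innate lymphoid cells of type 2 for the WT libraries and of type 3 for the libraries labelled Rag1-/-, whereas the title and protocols call the cells of both genotypes dILC2s. A germline deletion acts in every cell of the mouse, so the genotype of the sorted cells and that of the skin around them cannot be told apart in this design.

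The WT pools 5, 6 and 13 held 38796193, 39477243 and 32939428 counts, and the Rag1-/- pools 2 and 7 held 8050562 and 38922750. *Rag1* itself was not lower in the libraries labelled Rag1-/-, with 5 and 48 counts in pools 2 and 7 against 4, 0 and 5 counts in WT pools 5, 6 and 13, and a count per gene does not show which part of a transcript was read. Transcripts of genes known from ILC2s were present throughout. *Gata3*, a transcription factor that ILC2s express, was at 199, 319 and 229 CPM (counts of the gene per 1000000 counts of the library) in the WT pools and at 558 and 369 CPM in the Rag1-/- pools. The summed level of 20 ILC2 genes, with *Gata3* among them, was 1656 to 3258 CPM in the WT pools and 5933 to 8319 CPM in the Rag1-/- pools. Markers of other cell types were present as well, and they differed between the groups. Of 36 keratinocyte genes tested, 10 were lower in the libraries labelled Rag1-/- with edgeR (26 with DESeq2) and 0 were higher, with a median log2 fold change of -1.54. Their summed level was 39616 to 57687 CPM in the WT pools, 9565 CPM in Rag1-/- pool 2 and 23444 CPM in Rag1-/- pool 7. Of 36 leukocyte genes tested, 25 were higher with edgeR (34 with DESeq2) and 0 were lower, with a median of 1.97, and their summed level was 2422 to 4656 CPM against 10554 to 12187 CPM. With scaling on the leukocyte genes, their own median was -0.02 and that of the keratinocyte genes was -3.81. With scaling on the keratinocyte genes, the leukocyte median was 3.74 and that of the keratinocyte genes was -0.06. In such bulk libraries, fewer cells of a type and less RNA per cell cannot be told apart.

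The genes of the family shared a genomic neighbourhood. All 10 members lie on chromosome 3 of the mouse build GRCm38, between the start of *S100a1* at 90511034 and the end of *S100a10* at 93564643, a stretch of 3054 kb with 127 genes in the count table, where each identifier counts as a gene. *S100a13* (90514435 to 90524581) begins 0.043 kb after the end of *S100a1*. *S100a14* (90526856 to 90528837) follows after 2.28 kb and *S100a16* (90537254 to 90543151) after a further 8.42 kb. The gene model of *S100a3* (90560578 to 90602702) spans *S100a2*, and *S100a4* (90603771 to 90606045), *S100a5* and *S100a6* (90612882 to 90624181) stand next in line, separated by 2.48 and 1.10 kb. *S100a8* (90668978 to 90670035) and *S100a9* (90692632 to 90695721) lie 22.6 kb apart. *S100a11* (93520488 to 93526287) and *S100a10* (93555080 to 93564643) form the far end, 2825 kb beyond *S100a9* and past the epidermal differentiation genes.

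The stretches upstream of 5 members are shown because these genes, some of them close neighbours, had unlike values in the libraries. Each ends just before a RefSeq start of the gene or, for *S100a8*, where the files' gene model begins. They are RefSeq sequence of build GRCm38.p6, written 5′ to 3′ on the gene's own strand, and capitals mark the motifs named with them. The stretch of *S100a4* (chr3:90603520-90603769, plus strand) holds a TATA box. That of *S100a13* (chr3:90514393-90514434, plus strand) is the whole 42-base gap between *S100a1* and *S100a13* and holds no motif. That of *S100a16* (chr3:90537004-90537253, plus strand) holds none of the motifs searched. That of *S100a8* (chr3:90668821-90668977, plus strand) stops 93 bases before the RefSeq start and holds none of them either. That of *S100a9* (chr3:90695722-90695971, minus strand) holds a C/EBP-type site and a GC box.
S100a4: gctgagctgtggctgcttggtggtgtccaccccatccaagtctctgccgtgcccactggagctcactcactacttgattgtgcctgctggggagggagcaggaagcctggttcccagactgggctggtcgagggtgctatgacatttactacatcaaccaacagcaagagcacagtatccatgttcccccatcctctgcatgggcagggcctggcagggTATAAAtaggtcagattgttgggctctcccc
S100a13: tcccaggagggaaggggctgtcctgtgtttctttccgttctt
S100a16: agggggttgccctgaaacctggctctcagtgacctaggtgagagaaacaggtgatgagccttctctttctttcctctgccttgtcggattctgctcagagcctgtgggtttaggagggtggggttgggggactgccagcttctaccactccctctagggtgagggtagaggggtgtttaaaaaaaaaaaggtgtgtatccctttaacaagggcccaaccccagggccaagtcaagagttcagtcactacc
S100a8: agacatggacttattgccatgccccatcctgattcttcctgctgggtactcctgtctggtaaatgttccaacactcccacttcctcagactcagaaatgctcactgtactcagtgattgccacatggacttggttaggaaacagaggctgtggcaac
S100a9: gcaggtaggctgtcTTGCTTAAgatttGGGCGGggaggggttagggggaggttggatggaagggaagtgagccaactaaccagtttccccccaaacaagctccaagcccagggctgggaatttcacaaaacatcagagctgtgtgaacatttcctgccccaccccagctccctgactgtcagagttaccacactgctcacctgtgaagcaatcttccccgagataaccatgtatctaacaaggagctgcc

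The motifs were searched on both strands in windows from 250 bases before to 50 bases after each RefSeq start, of which 8 of the 10 members had 12, and no matches of different motifs overlapped in them. The TATA box (TATAAA) was found in 4 member windows, of *S100a3*, *S100a4*, *S100a8* and *S100a9*, and in 13.6% of all 32851 windows. The match of *S100a9* is not in the 250 bases printed above and lies in the 50 bases after the RefSeq start. That of *S100a8* is outside its printed stretch as well. The GC box (GGGCGG) was found in 4 member windows, of *S100a3*, *S100a9*, *S100a11* and *S100a16*, and in 35.7% of all windows. The AP-1 site (TGANTCA) was found in 2 member windows, of *S100a11* and *S100a16*, and in 7.81% of all. For *S100a16* the AP-1 site and the GC box were in the window of another RefSeq start (chr3:90540896-90541195). The window of its printed stretch held no match. The C/EBP-type site (TTGCNNAA) was in the window of *S100a9* and in 10.8% of all, and the standard NF-kappa B consensus was in 0 member windows and in 8.46% of all. These are matches of letters and not measured binding sites.

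The levels of the members were far apart. Per length of transcript, as CPM divided by kilobases of transcript (RPKM), the WT order was *S100a6* at 866 ± 225 (SD, n = 3), *S100a14* at 801 ± 50.7, *S100a10* at 640 ± 99.8, *S100a11* at 228 ± 17.7, *S100a16* at 173 ± 9.90, *S100a4* at 95.1 ± 37.1, *S100a13* at 52.8 ± 15.4, *S100a9* at 6.90 ± 5.99, *S100a8* at 4.53 ± 3.25 and *S100a3* at 0.797 ± 0.193. The WT ranges of *S100a6* and *S100a14*, of *S100a4* and *S100a13*, of *S100a9* and *S100a8*, and of *S100a8* and *S100a3* overlapped, so the order within these pairs of neighbours did not go beyond the spread between pools. *S100a6*, *S100a14* and *S100a10* stood at places 64, 73 and 96 among the 19011 genes tested. In the Rag1-/- pools the order per length was *S100a6* at 1659 ± 669 RPKM (SD, n = 2), *S100a10* at 1018 ± 408, *S100a14* at 334 ± 260, *S100a4* at 315 ± 106, *S100a11* at 285 ± 62.3, *S100a13* at 116 ± 37.5, *S100a16* at 76.2 ± 55.8, *S100a9* at 42.7 ± 41.2, *S100a8* at 17.4 ± 12.9 and *S100a3* at 0.484 ± 0.517. Here only the steps from *S100a10* to *S100a14*, from *S100a11* to *S100a13* and from *S100a8* to *S100a3* had ranges that did not overlap. The length given for *S100a3* in the files, 3143 bases, is long for the family and lowers its RPKM.

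Between the genotypes, *S100a4* was the member whose difference passed the test. It was 3.31-fold higher by mean CPM in the libraries labelled Rag1-/-, and it was the single call among the 10 members, beside 5.74% of all 19011 genes tested, where a call needed an adjusted p under 0.05 together with a log2 fold change beyond 1 in either direction. By direction, 680 genes (3.58%) were higher and 411 (2.16%) were lower, while 16 were higher and 13617 lower with scaling on leukocyte genes, and 11685 were higher and 55 lower with scaling on keratinocyte genes. The median log2 fold change was 0.85 over the members and 0.02 over all genes, and it was positive for 7 of the 10 members. At an unadjusted p under 0.05 in edgeR's quasi-likelihood test there were 6 members, beside 26.4% of all genes. In 7 of the 10 members the groups did not overlap in CPM, which also held for 45.9% of all genes. Of these 7, 5 were higher in both Rag1-/- pools, beside 21.9% of all genes, and 2 were lower, beside 24% of all genes. DESeq2 called 14.8% of the 16571 genes it tested. Its calls held 2 members that were higher, *S100a4* and *S100a13*, beside 7.22% of those genes, and 1 that was lower, *S100a14*, beside 7.59%.

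**Figure D1:**
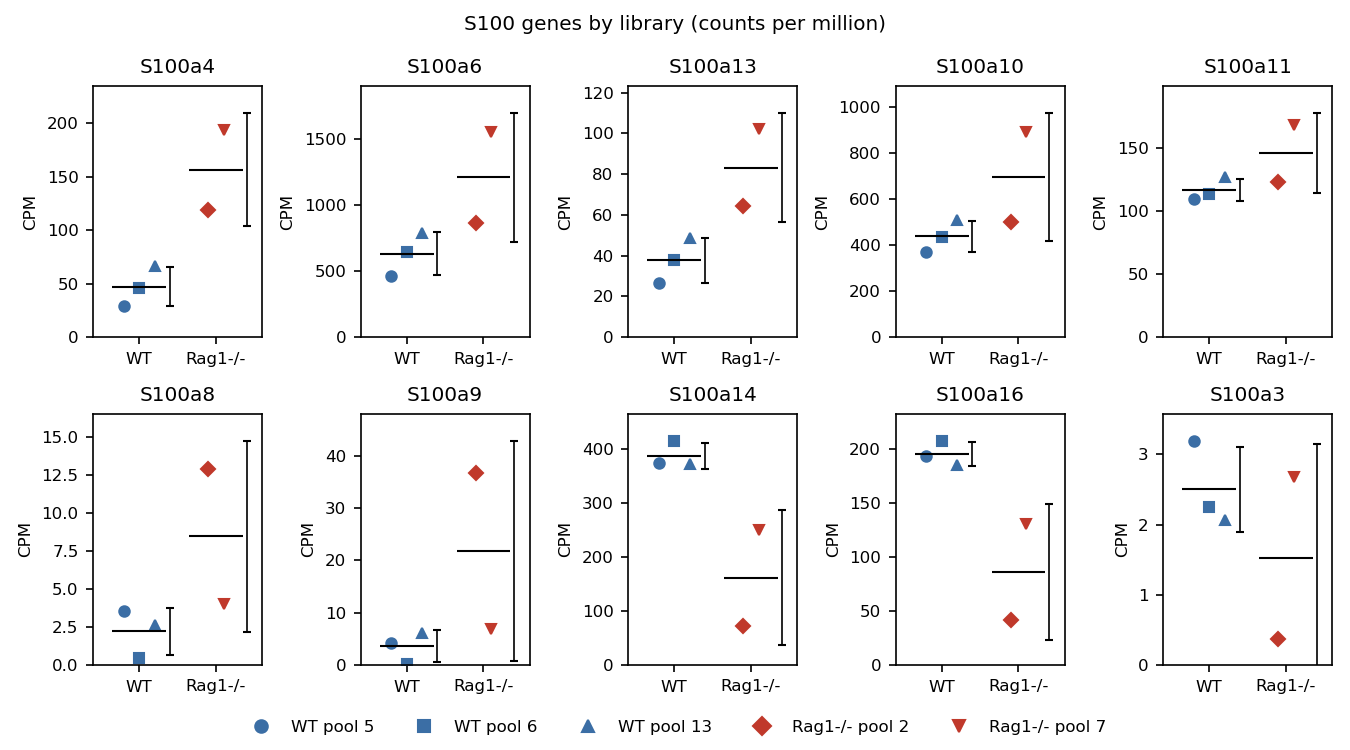
CPM of each S100 member in each library (linear axes starting at 0, a separate scale for each gene). Points are libraries, 3 WT and 2 labelled Rag1-/-, and the line and bar give the group's mean ± SD, cut at 0 where the SD is larger than the mean. *S100a4* lay at 29.5 to 66.4 CPM in WT and at 119 to 194 CPM in the Rag1-/- pools, and *S100a14* at 372 to 415 CPM against 72.8 and 250.2 CPM.

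All folds depend on what the libraries are scaled to. With scaling on the leukocyte genes the median log2 fold change of all genes was -2.16, and with scaling on the keratinocyte genes it was 1.75. Under leukocyte scaling the fold change was negative for 9 of the 10 members, all but *S100a9* at 0.33, with a median of -1.24 and 4 members called lower, *S100a3*, *S100a11*, *S100a14* and *S100a16*, beside 71.6% of all genes called lower. Under keratinocyte scaling it was positive for all 10, with a median of 2.39 and 7 members called higher, beside 61.5% of all genes. With TMM scaling and no filter on low counts, 6 members were called beside 8.84% of all genes, 4 of them higher (3.87% of all genes) and 2 lower (4.98%). A change of scaling shifts the log2 fold changes of all genes by a similar amount, and subtracting the median of all genes largely removes that shift. Relative to that median each of the 10 members kept its sign under both scalings, which follows largely from the calculation and is no test of the scaling. *S100a4* stood 1.75 above that median on the log2 scale with TMM scaling, 1.92 above it with leukocyte scaling and 1.57 above it with keratinocyte scaling. *S100a14* stood at -1.23, -1.20 and -1.57 relative to the same medians.

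**Figure D2:**
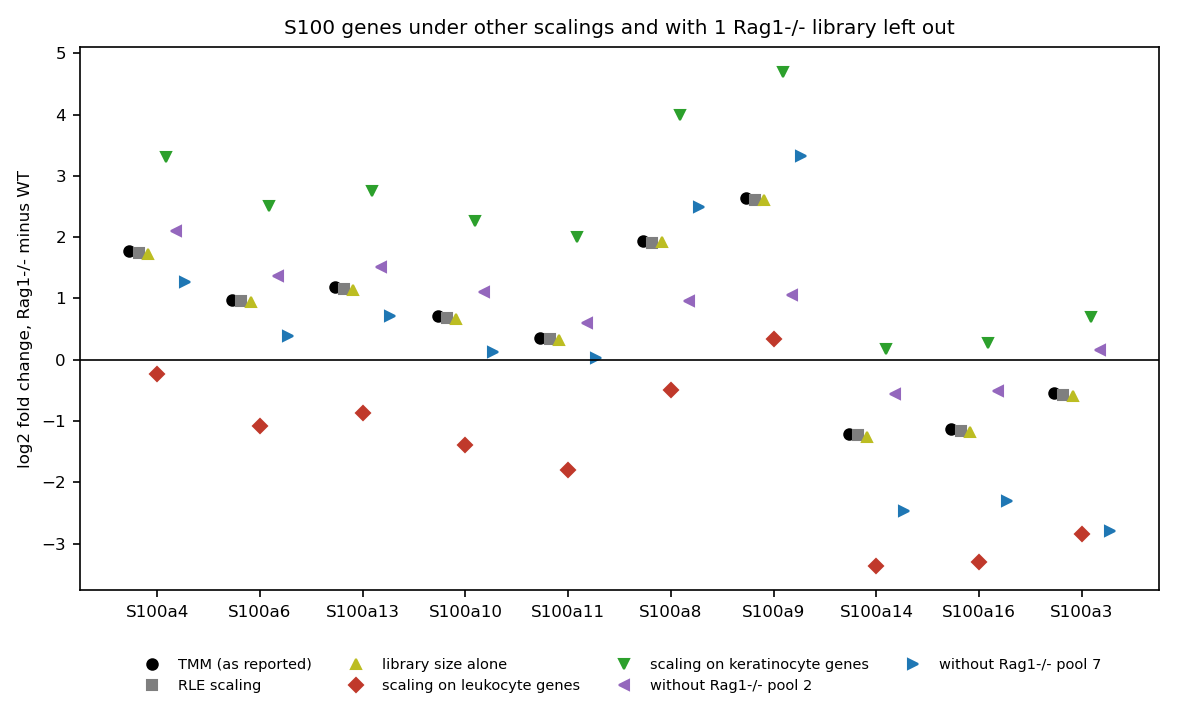
Log2 fold change (libraries labelled Rag1-/- minus WT) of each S100 member with TMM, RLE, library-size, leukocyte and keratinocyte scaling and without each Rag1-/- pool. Under leukocyte scaling *S100a4* moved from 1.77 to -0.24 and *S100a6* from 0.98 to -1.08, and under keratinocyte scaling *S100a14* moved from -1.21 to 0.17 and *S100a16* from -1.13 to 0.27, so each of these directions depended on the scaling.

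Among the members known from motile cells and leukocytes, *S100a4* encodes a protein that binds non-muscle myosin and is known from migrating lymphocytes, macrophages and fibroblasts. Its level was 29.5, 46.2 and 66.4 CPM in WT pools 5, 6 and 13 (47.4 ± 18.5, SD, n = 3) and 119 and 194 CPM in Rag1-/- pools 2 and 7 (157 ± 53.0, SD, n = 2). Every Rag1-/- pool lay above every WT pool. The log2 fold change was 1.77 (SE 0.37, 95% interval 0.90 to 2.64, edgeR adjusted p = 0.0401), and it turned to -0.24 with scaling on leukocyte genes (edgeR adjusted p = 0.744). DESeq2 gave 1.73 with an adjusted p of 0.000448. The call ended whichever of the 5 libraries was left out, with log2 fold changes of 1.28 to 2.11 (edgeR adjusted p of 0.0837 to 0.122 without a WT pool). In all of these fits but that without Rag1-/- pool 7, no gene at all was called. The loss of the call in those fits was therefore not particular to *S100a4*. In the annotation GENCODE M21, 302 of the 584 exonic bases of *S100a4* are shared with *Gm42674* on the same strand, which was listed with 0 counts in all 5 libraries, so the count of *S100a4* is uncertain by the way shared reads were treated.

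*S100a6* encodes calcyclin, which binds the ubiquitin ligase adaptor Cacybp and is known from proliferating and mesenchymal cells as well as epidermis. Its level was 463, 645 and 791 CPM in the WT pools (633 ± 164, SD, n = 3) and 867 and 1558 CPM in the Rag1-/- pools (1213 ± 489, SD, n = 2). The groups did not overlap, although Rag1-/- pool 2 was close to the highest WT pool. Its difference, a log2 fold change of 0.98 (SE 0.35, interval 0.16 to 1.80), did not pass the test (edgeR adjusted p = 0.132), and it was -1.08 with scaling on leukocyte genes.

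*S100a13* encodes a copper- and calcium-binding protein that takes part in the release of FGF1 and interleukin 1 alpha. Its level was 26.7, 37.7 and 48.8 CPM in the WT pools (37.8 ± 11, SD, n = 3) and 64.2 and 102 CPM in the Rag1-/- pools (83.2 ± 26.8, SD, n = 2). The groups did not overlap. Its log2 fold change of 1.18 (SE 0.32, interval 0.44 to 1.93) missed the threshold with edgeR (adjusted p = 0.0705) and passed it with DESeq2 (1.15, adjusted p = 0.0145), and it was -0.87 with scaling on leukocyte genes. Its neighbour *S100a1*, on the other side of the 42-base gap printed above, was at 12.5, 14.2 and 22.3 CPM in the WT pools and at 9.07 and 20.9 CPM in the Rag1-/- pools, with a log2 fold change of -0.05 (interval -1.04 to 0.93).

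Leukocyte genes, of which 25 of 36 were called higher, had their higher summed level in the same group of libraries as these members. Between the Rag1-/- pools the order was opposite. The summed leukocyte level was 12187 CPM in pool 2 and 10554 CPM in pool 7, whereas *S100a4*, *S100a6* and *S100a13* were higher in pool 7. Of 20 ILC2 genes 6 were called higher with edgeR and 15 with DESeq2, with a median of 1.89 and a summed level of 1656 to 3258 CPM in WT and 5933 to 8319 CPM in the Rag1-/- pools. Of 10 ILC3 genes edgeR called 4 higher and 1 lower, and DESeq2 6 higher and 1 lower. Of 10 NK cell and ILC1 genes 4 were called higher with edgeR and 8 with DESeq2, with a median of 2.33 and a summed level of 35.1 to 107 CPM in WT and 263 to 320 CPM in the Rag1-/- pools. Of 10 T cell genes tested edgeR called 3 higher, and DESeq2 4 higher and 1 lower, with a median of 0.57 and a summed level of 63.4 to 127 CPM in WT and 310 to 366 CPM in the Rag1-/- pools. None of the genes of these lists was at 0 in all libraries. Of 13 fibroblast genes 0 were called with edgeR, 0 had an unadjusted p under 0.05 and DESeq2 called 0, and their summed level was 10199 to 17729 CPM in WT and 11141 to 11737 CPM in the Rag1-/- pools. The lists are named for cell types in which their genes are known. The Rag1-/- mice lack mature T cells, so the sum of the T cell list is no measure of such cells there. The part of any cell type in the differences of *S100a4*, *S100a6* and *S100a13* was not tested.

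*S100a10* and *S100a11* encode partners of annexins and are broadly expressed. S100A10, which has lost calcium binding, pairs with annexin A2 in a heterotetramer at the cell membrane. *S100a10* was at 372, 435 and 508 CPM in the WT pools (438 ± 68.3, SD, n = 3) and at 499.6 and 895 CPM in the Rag1-/- pools (697 ± 279, SD, n = 2). Rag1-/- pool 2 lay within the WT range and pool 7 lay above it. Its log2 fold change was 0.71 (SE 0.31, interval -0.01 to 1.43, edgeR adjusted p = 0.195), and -1.40 with scaling on leukocyte genes. *S100a11*, whose protein binds annexin A1 and is known from the cornified envelope, was at 109, 114 and 127 CPM in the WT pools (117 ± 9.03, SD, n = 3) and at 123 and 168 CPM in the Rag1-/- pools (146 ± 31.8, SD, n = 2). Here too pool 2 lay within the WT range. The log2 fold change was 0.36 (SE 0.21, interval -0.14 to 0.87, edgeR adjusted p = 0.336), and -1.80 with scaling on leukocyte genes.

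*S100a8* and *S100a9* encode the subunits of calprotectin, a protein of neutrophils and monocytes that is also induced in stressed keratinocytes. *S100a8* was at 3.53, 0.456 and 2.61 CPM in the WT pools (137, 18 and 86 counts) and at 12.9 and 4.03 CPM in the Rag1-/- pools (104 and 157 counts). *S100a9* was at 4.23, 0.177 and 6.19 CPM in the WT pools (164, 7 and 204 counts) and at 36.8 and 6.94 CPM in the Rag1-/- pools (296 and 270 counts). Both genes were lowest in WT pool 6 and highest in Rag1-/- pool 2, and in neither did the groups overlap, although for *S100a9* Rag1-/- pool 7 was barely above WT pool 13. Within WT, the highest pool exceeded the lowest 34.9-fold for *S100a9*.

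The log2 fold change was 1.94 for *S100a8* (SE 0.81, interval 0.05 to 3.84, edgeR adjusted p = 0.180) and 2.63 for *S100a9* (SE 1.13, interval -0.03 to 5.29, edgeR adjusted p = 0.193), so neither passed the test. Without Rag1-/- pool 2 these values dropped to 0.96 and 1.06. With scaling on leukocyte genes they were -0.49 and 0.33. Of 18 neutrophil genes, 10 were tested and 1 was called higher, *Retnlg*, a resistin-like gene of mature neutrophils, with 2, 0 and 0 counts in the WT pools and 11 and 28 counts in the Rag1-/- pools. The neutrophil surface marker *Ly6g* and the receptor gene *Mrgpra2b* were at 0 in all libraries, and the summed level of the list was 179 to 448 CPM in WT and 307 to 364 CPM in the Rag1-/- pools. *Csf3r*, the receptor of the neutrophil growth factor G-CSF, was at 1.31, 0.890 and 2.49 CPM in the WT pools. In Rag1-/- pools 2 and 7 it was at 13.3 and 2.26 CPM, so it was highest in the same pool as *S100a8* and *S100a9*. The summed level of the list was not highest there, at 307 CPM in that pool, 364 CPM in Rag1-/- pool 7 and 448 CPM in WT pool 13. Of the 10 neutrophil genes tested 7 had positive fold changes, with a median of 0.25. Of 20 monocyte, macrophage and Langerhans cell genes 0 were called with edgeR, 1 had an unadjusted p under 0.05 and DESeq2 called 1 higher, and their summed level was 1566 to 3946 CPM in WT and 2261 to 3658 CPM in the Rag1-/- pools. The part of these cells in the levels of *S100a8* and *S100a9* was not tested.

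Among the members known from epidermis, *S100a14* and *S100a16* had lower values in the libraries labelled Rag1-/-, and neither passed the edgeR test. *S100a14*, an epithelial member, was at 374, 415 and 372 CPM in the WT pools (387 ± 24.5, SD, n = 3) and at 72.8 and 250.2 CPM in the Rag1-/- pools (162 ± 125, SD, n = 2). *S100a16*, a broadly expressed member with a high level in epithelia, was at 193, 207 and 185 CPM in the WT pools (195 ± 11.2, SD, n = 3) and at 41.4 and 130 CPM in the Rag1-/- pools (85.8 ± 62.9, SD, n = 2). The WT pools were close to each other, both Rag1-/- pools lay below all of them, and pool 2 lay far below pool 7, by 3.44-fold for *S100a14* and 3.15-fold for *S100a16*.

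The log2 fold change was -1.21 for *S100a14* (SE 0.49, interval -2.36 to -0.06, edgeR adjusted p = 0.173) and -1.13 for *S100a16* (SE 0.45, interval -2.20 to -0.06, edgeR adjusted p = 0.170), and with scaling on keratinocyte genes both turned positive, to 0.17 and 0.27. DESeq2 called *S100a14* lower (-1.24, adjusted p = 0.0493). The size of both differences depended on which Rag1-/- pool was kept. Without Rag1-/- pool 7 both genes were called lower, at -2.47 and -2.30 (edgeR adjusted p = 0.0124 for each), beside 7.98% of all genes called lower, and without Rag1-/- pool 2 the values were -0.56 and -0.51 and neither was called. The summed level of the keratinocyte genes had the same order of groups, with all WT pools highest, then Rag1-/- pool 7 and then pool 2. Singly, 33 of the 36 keratinocyte genes had groups that did not overlap, beside 45.9% of all genes tested, and none was at 0 in all libraries. Their part in the differences of *S100a14* and *S100a16* was not tested.

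*S100a3*, which is known from the hair cuticle, was the lowest member by mean RPKM. It was at 3.20, 2.25 and 2.06 CPM in the WT pools (124, 89 and 68 counts), and at 0.373 and 2.67 CPM in the Rag1-/- pools (3 and 104 counts). The 3 counts of Rag1-/- pool 2 allow 0.0768 to 1.09 CPM as an exact Poisson 95% interval, which covers counting error only, and pool 7 lay within the WT range. The log2 fold change was -0.54 (SE 0.70, interval -2.19 to 1.11, edgeR adjusted p = 0.682), and it was 0.16 without Rag1-/- pool 2 and 0.70 with scaling on keratinocyte genes. Of 19 hair follicle genes 10 were tested, of which 0 were called with edgeR, 4 had an unadjusted p under 0.05 and DESeq2 called 3 lower, 2 of the 19 were at 0 in all libraries, and their summed level was 36.8 to 128 CPM in WT and 15.9 to 28.3 CPM in the Rag1-/- pools. Their part in the level of *S100a3* was not tested.

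Ratios of members within a library do not depend on scaling and were compared for 5 pairs with exact two-sided permutation tests, which at 3 against 2 libraries cannot go below p = 0.1. The count of *S100a4* was 0.0637, 0.0716 and 0.0839 of that of *S100a6* in the WT pools and 0.138 and 0.125 in the Rag1-/- pools, a difference of 0.85 in log2 ratio (exact permutation p = 0.1, adjusted over the 5 pairs 0.125). The count of *S100a10* was 0.266, 0.316 and 0.370 of that of *Anxa2* in the WT pools and 0.507 and 0.589 in the Rag1-/- pools, a difference of 0.80 (exact permutation p = 0.1, adjusted 0.125). The count of *S100a11* was 0.152, 0.143 and 0.154 of that of *Anxa1* in the WT pools and 0.273 and 0.265 in the Rag1-/- pools, a difference of 0.84 (exact permutation p = 0.1, adjusted 0.125). In these 3 pairs each Rag1-/- pool lay above each WT pool, whereas the design could not bring any of them past the threshold.

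The smallest of the 5 differences was that of *S100a14* to *S100a16*. The count of *S100a14* was 1.93, 2.00 and 2.01 times that of *S100a16* in the WT pools and 1.76 and 1.92 times in the Rag1-/- pools, a difference of -0.11 in log2 ratio (exact permutation p = 0.1, adjusted 0.125). Both Rag1-/- pools lay below all WT pools here as well. The ratio of the calprotectin subunits spread much more. The log2 ratio of *S100a8* to *S100a9* was -0.26, 1.30 and -1.24 in the WT pools and -1.50 and -0.78 in the Rag1-/- pools, which overlapped (difference -1.08, exact permutation p = 0.4, adjusted 0.4). As a description chosen after its values were seen, the count of *S100a4* was 0.0788, 0.111 and 0.179 of that of *S100a14* in the WT pools and 1.64 and 0.776 in the Rag1-/- pools, and that of *S100a13* was 0.0714, 0.0909 and 0.131 of *S100a14* against 0.882 and 0.408. *S100a13* and *S100a14* lie 2.28 kb apart.

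**Figure D3:**
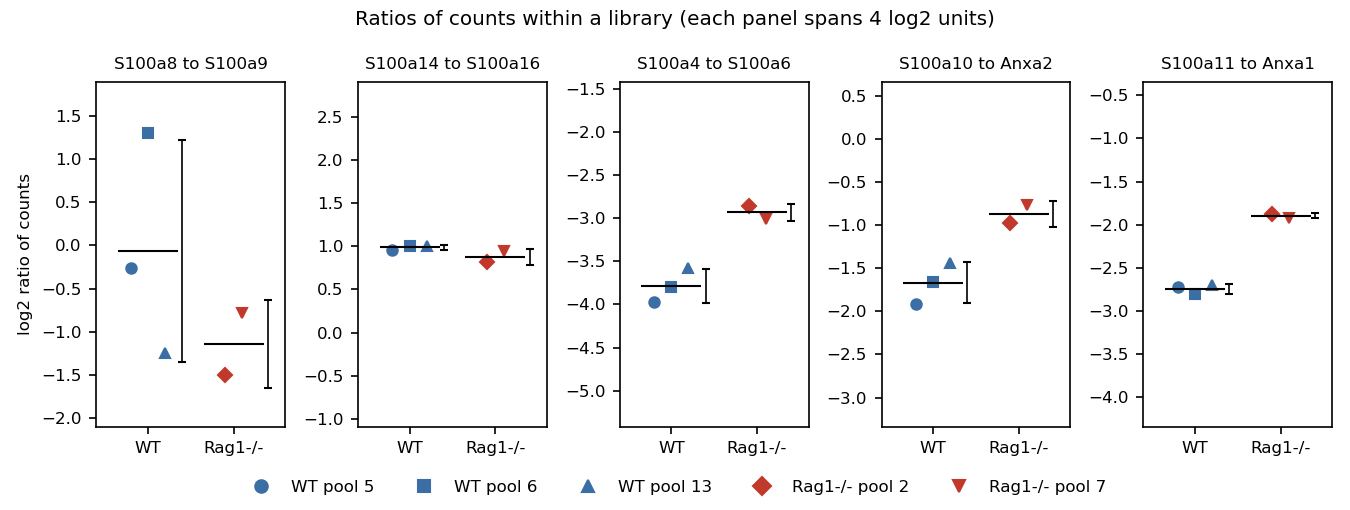
Log2 ratio of counts within each library for 5 pairs of genes (same span on every vertical axis). Points are libraries, 3 WT and 2 labelled Rag1-/-. The ratio of *S100a14* to *S100a16* differed by -0.11 between the groups, those of *S100a4* to *S100a6*, *S100a10* to *Anxa2* and *S100a11* to *Anxa1* by 0.85, 0.80 and 0.84 with the Rag1-/- points above the WT points, and the ratio of *S100a8* to *S100a9* overlapped.

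The other S100 genes were at low levels. Of 7 such genes 4 were tested, of which 0 were called with edgeR, 0 had an unadjusted p under 0.05 and DESeq2 called 0, with a median log2 fold change of -0.30. *S100b*, known from Schwann cells and melanocytes, was at 8.40, 7.62 and 12.2 CPM in the WT pools and at 4.10 and 19.9 CPM in the Rag1-/- pools (log2 fold change 0.44, interval -0.95 to 1.82). The values of *S100a7a*, an inducible epidermal member, and *S100a5* were -0.54 (interval -2.24 to 1.15) and -2.33 (interval -4.83 to 0.16), the latter from at most 15 counts in a library. *S100a2*, *S100g* and *S100z* were below the filter on low counts.

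The S100 fused-type genes encode large epidermal proteins that begin with an S100 domain, such as filaggrin. All 6 tested had negative fold changes with a median of -2.20, whereas 2 of them, *Rptn* and *Tchhl1*, were positive with scaling on keratinocyte genes. Of the 6, 0 were called with edgeR and 1 had an unadjusted p under 0.05, beside 26.4% of all genes. DESeq2 called 1 lower, beside 7.59% of all genes it tested. That gene was *Tchh*, the trichohyalin gene of the hair follicle (edgeR log2 fold change -2.16, adjusted p = 0.0621). *Flg2*, a filaggrin relative, was at 301, 111 and 148 CPM in the WT pools and at 0.124 and 59.1 CPM in the Rag1-/- pools. *Hrnr*, hornerin, was at 239, 67.9 and 99.4 CPM against 1.37 and 51.9 CPM. Both were lowest in Rag1-/- pool 2, the pool in which *S100a14*, *S100a16* and *S100a3* were lowest, with log2 fold changes of -2.55 (interval -5.78 to 0.68) and -2.24 (interval -5.00 to 0.52). Without Rag1-/- pool 7, which leaves 1 library in that group, the values were -10.56 and -6.69. They rest on 1 count of *Flg2*, below the floor of 3 counts, and 11 counts of *Hrnr* in pool 2. *Flg*, the filaggrin gene, has 7 rows in the table, and the row with the most counts, which spans the others, was at 29.0, 15.3 and 8.38 CPM in the WT pools and at 0.124 and 6.22 CPM in the Rag1-/- pools (log2 fold change -2.26, interval -4.66 to 0.14, edgeR adjusted p = 0.212). Without Rag1-/- pool 7 the value of *Flg* was -7.16, which rests on 1 count in pool 2, also below the floor. The values of *Rptn* and *Tchhl1* were -0.68 and -0.80.

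**Figure D4:**
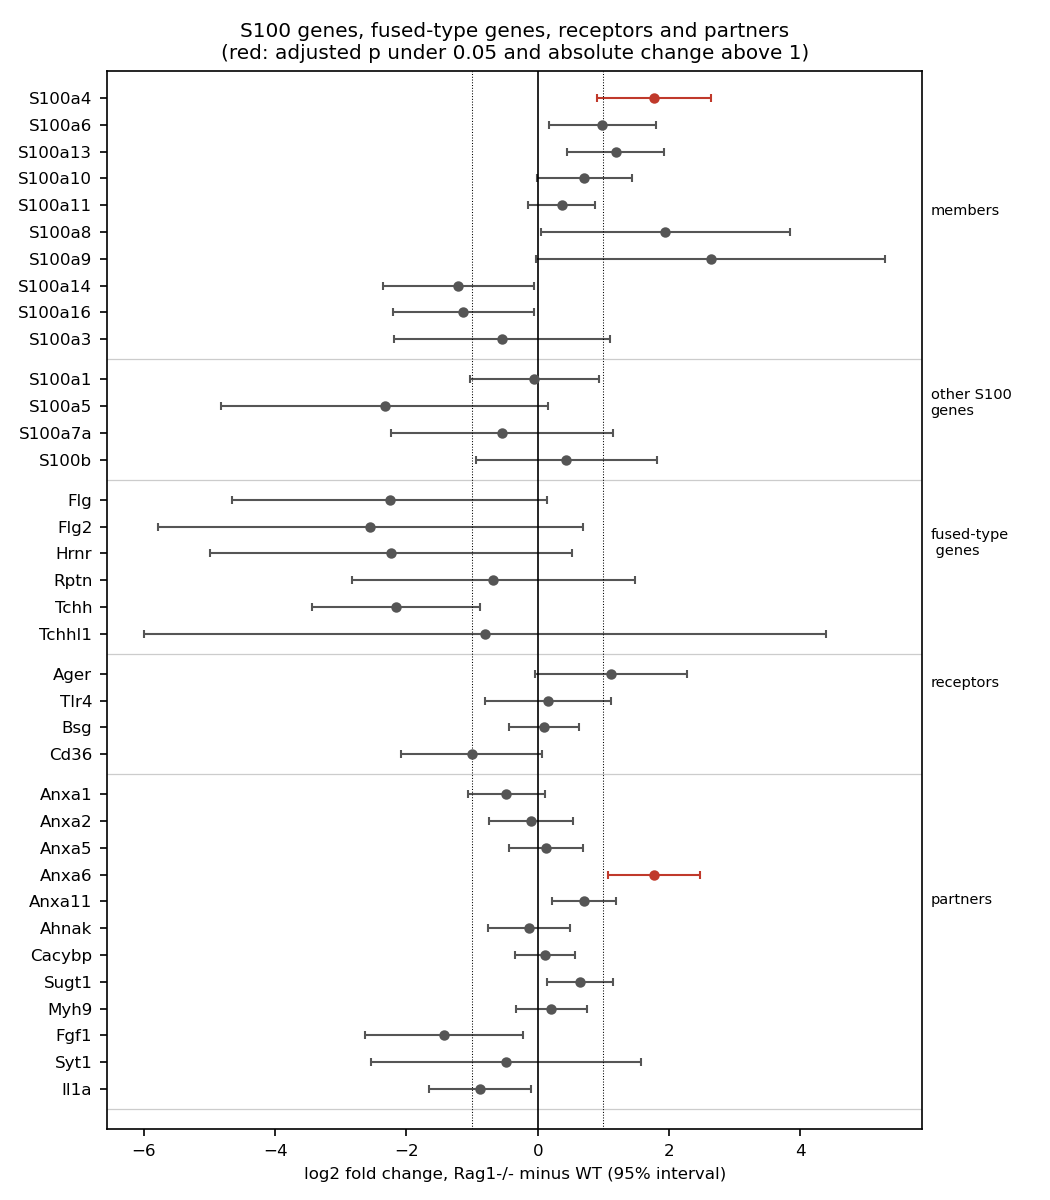
Log2 fold change (libraries labelled Rag1-/- minus WT, TMM scaling) with its 95% interval for the S100 members, the other S100 genes, the fused-type genes, the receptors and the protein partners. *S100a4* at 1.77 and *Anxa6* at 1.77 passed the test, and all 6 fused-type genes lay below 0, *Tchhl1* with an interval of -6.00 to 4.40. With scaling on leukocyte genes *S100a4* and *Anxa6* turned to -0.24 and -0.26, and with scaling on keratinocyte genes 2 of the 6 fused-type genes turned positive.

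Receptors and partners were described for the molecules that released or intracellular S100 proteins bind. Of 4 receptor genes 0 were called with edgeR, 0 had an unadjusted p under 0.05 and DESeq2 called 0, with a median of 0.12. *Ager*, which encodes RAGE, was at 2.24, 2.74 and 2.06 CPM in the WT pools and at 7.70 and 2.62 CPM in the Rag1-/- pools (log2 fold change 1.11, interval -0.04 to 2.27). The values were 0.15 for *Tlr4* (interval -0.80 to 1.11), 0.09 for *Bsg*, which encodes basigin (interval -0.44 to 0.63), and -1.01 for the fatty acid receptor gene *Cd36* (interval -2.08 to 0.06).

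Of 12 partner genes tested, 1 was called higher with edgeR, beside 3.58% of all genes. DESeq2 called 1 higher, beside 7.22% of all genes it tested, and 1 lower, beside 7.59%. *Anxa6*, which encodes a calcium-dependent membrane-binding annexin, rose from 86.4, 139 and 163 CPM in the WT pools to 387 and 477 CPM in the Rag1-/- pools, with no overlap (log2 fold change 1.77, SE 0.30, interval 1.07 to 2.48, edgeR adjusted p = 0.0308), although it turned to -0.26 with scaling on leukocyte genes. With single libraries left out its values were 1.52 to 1.96. The call held without Rag1-/- pool 7, which leaves 1 library in that group, and ended in the other 4 cases. No gene at all was called in those 4 cases, so the loss was not particular to *Anxa6*. *Anxa2*, the partner of S100A10, was at 1397, 1379 and 1374 CPM against 985 and 1520 CPM (log2 fold change -0.10, interval -0.74 to 0.53). *Anxa1*, the partner of S100A11, was at 719.5, 795 and 822 CPM against 452 and 636 CPM (log2 fold change -0.48, interval -1.06 to 0.11). *Fgf1*, whose release involves S100A13, was the gene that DESeq2 called lower (edgeR log2 fold change -1.43, interval -2.63 to -0.23, adjusted p = 0.135). The other partners ranged from -0.88 for *Il1a* to 0.70 for *Anxa11*, with *Syt1* at -0.48, *Ahnak* at -0.14, *Cacybp* at 0.11, *Anxa5* at 0.12, *Myh9* at 0.21 and *Sugt1* at 0.65, and *Padi3* was below the filter.

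The S100 genes were also set beside the other genes of the same stretch of chromosome 3. Of the 113 genes other than S100 genes between *S100a1* and *S100a10*, 55 were tested and 48 of these had negative fold changes, with a median of -1.24 and a range of -4.00 to 1.24, while 29 were negative with a median of -0.06 under scaling on keratinocyte genes. Of these 55, 4 are rows of *Flg*, among them the lowest. In all, 0 were called with edgeR, 5 had an unadjusted p under 0.05 and DESeq2 called 2 lower. Of the 14 S100 genes of the stretch 13 were tested, with a median of 0.36, and 7 of them were positive, all of which are members, against 1 positive with scaling on leukocyte genes and 12 with scaling on keratinocyte genes. The summed level of the other genes was 1592 to 3522 CPM in the WT pools, 62.9 CPM in Rag1-/- pool 2 and 1346 CPM in pool 7, whereas that of the 10 members was 1579, 1904 and 2109 CPM in the WT pools and 1837 and 3312 CPM in the Rag1-/- pools. The order of libraries among the other genes was that of the keratinocyte genes in having Rag1-/- pool 2 lowest, and the difference between S100 genes and their neighbours was not tested.

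**Figure D5:**
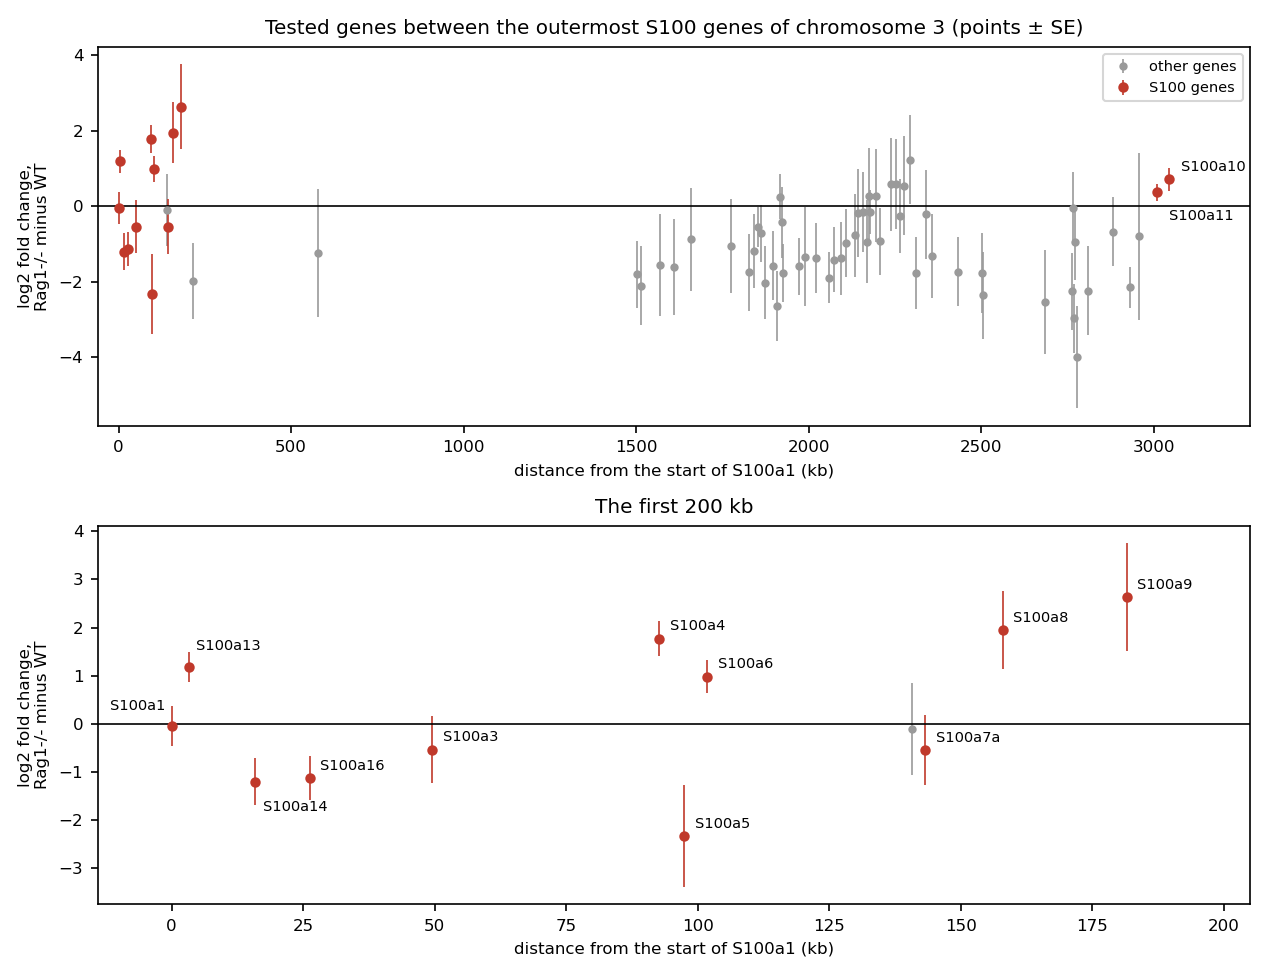
Log2 fold change (libraries labelled Rag1-/- minus WT, TMM scaling) with its SE against distance from the start of *S100a1* in kb, for the tested genes between the outermost S100 genes (upper panel) and for the first 200 kb (lower panel). Of the 55 other genes, in grey, 48 lie below 0 (29 with scaling on keratinocyte genes), and among the S100 genes, in red, *S100a13* at 1.18 and *S100a14* at -1.21 are 2.28 kb apart, at -0.87 and -3.36 with scaling on leukocyte genes and at 2.75 and 0.17 with scaling on keratinocyte genes.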

How the data were processed

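PolyA RNA of sorted dILC2 pools (3 WT, 2 labelled Rag1-/-) was sequenced by the authors as single 50-base reads, aligned to GRCm38 with STAR 2.5 and counted per gene with featureCounts 1.5.0-p1 (Ensembl release 103 by the design text, 84 by the methods). The kit named in the labels does not mark strand, and the handling of multimapping or shared reads is not given in the sources used here. The deposited raw counts were analysed as counts. A second deposited table holds counts that the authors divided by size factors (unit: signal), and it entered only an alternative.

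Genes passing edgeR's filterByExpr by genotype (19011 of 47729) were fitted with TMM scaling, genotype as the only factor and the quasi-likelihood test (edgeR 4.0.16, R 4.3.3), with Benjamini-Hochberg adjustment over all genes tested. A call needed an adjusted p under 0.05 together with a log2 fold change beyond 1 in either direction. The script was tested on simulated data. CPM are counts scaled to the library's total, and RPKM divide CPM by the transcript length in the files. A count of 3, taken as the floor, equals 0.0760 to 0.0911 CPM in the deeper libraries and 0.373 CPM in Rag1-/- pool 2. Ratios used a pseudocount of 0.5. Alternatives were DESeq2 1.42.0, limma 3.58.1 on log2(deposited signal + 1), other scalings, other filters on low counts and leaving out each library. Libraries of a group differed beyond counting noise (chi-square per degree of freedom 53.0 to 95.0), so none was a duplicate of another. Pools were separate samples, and p-values measure the spread between pools.

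Where several rows of a list gene shared a symbol, the row with the most counts was used. All 10 members were named, every related gene with a value, and marker genes only where they touch a member's result. The members and lists were chosen with earlier results of these data known. Sequences are from RefSeq (GRCm38.p6), and 8 of the 10 members matched.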

Additional observations from a re-analysis of the deposited data

How the results depend on the processing

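The number of genes called was 1091 and became 2454 with DESeq2, 13633 with scaling on leukocyte genes, 11740 with scaling on keratinocyte genes, 2645 with no filter and 0 to 2409 with each library left out, above 0 only without Rag1-/- pool 7. Members called (1) became 3, 4, 7, 6 and 0 to 2 in that order. Of the related genes (1 called) the counts were 3, 22, 13, 7 and 0 to 6, with 2 at a minimum of 10 counts in every library. Of all genes of the S100 stretch (1 called) they were 5, 53, 9, 21 and 0 to 26, with 2 at that minimum, which left *S100a3* and *S100a9* without a value. Scaling on leukocyte genes reversed *S100a4* (-0.24), *S100a6* (-1.08), *S100a8* (-0.49), *S100a10* (-1.40), *S100a11* (-1.80) and *S100a13* (-0.87) and brought *S100a3* (-2.84), *S100a14* (-3.36) and *S100a16* (-3.30) past the threshold. Scaling on keratinocyte genes reversed *S100a3* (0.70), *S100a14* (0.17) and *S100a16* (0.27) and brought *S100a6* (2.51), *S100a8* (3.99), *S100a9* (4.70), *S100a10* (2.26), *S100a11* (2.00) and *S100a13* (2.75) past it. With no filter *S100a8* (1.84), *S100a9* (2.51), *S100a13* (1.13), *S100a14* (-1.24) and *S100a16* (-1.17) passed, and with DESeq2 *S100a13* (1.15) and *S100a14* (-1.24). With each library left out, *S100a4* lay at 1.28 to 2.11 and lost its call each time, *S100a14* at -2.47 to -0.56, *S100a16* at -2.30 to -0.51 and *S100a3* at -2.80 to 0.16. The cause of these changes was not tested.

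Leaving out a Rag1-/- pool leaves 1 library in that arm, which is then assumed to vary like the WT pools. RLE scaling, library size alone, limma on the deposited signal and the adjusted p alone changed no member's direction or call. Among the ratios no direction changed, and the design could not pass the threshold. No paired analysis was possible because the groups share no replicate numbers. The depth of Rag1-/- pool 2 limits *S100a3* (3 counts).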
